A study of Homo sapiens with 6 samples.

Results

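The regions described here were peaks of the repressive histone mark H3K27me3 that were called after knockdown of E2F1, that had no peak in the control, and that lay at promoters where E2F1 itself was not called. They were chosen by the measured peak lists. A region was taken when it was a peak of the shE2F1 list, overlapped no peak of the control shRNA list by as much as 1 bp, had its midpoint within 1 kb of a transcription start site (TSS) of a protein-coding gene, and overlapped no E2F1 peak in untreated, DMSO or GSK126 cells. Of the 135683 peaks in the shE2F1 list, 2060 met all of these conditions. Chromatin immunoprecipitation with sequencing (ChIP-seq), which maps where a protein or a histone modification sits on DNA, was performed in MDA-MB-231, a human cell line from a triple-negative breast cancer. H3K27me3 was profiled in cells transduced with lentivirus for 24 h and then kept in puromycin at 2 µg/ml for 72 h, with the virus delivering either a control shRNA or one that targets E2F1 (shE2F1). E2F1 was profiled in 3 libraries, from untreated cells and from cells exposed for 72 h to the solvent DMSO or to 1 µM GSK126, which blocks EZH2. No E2F1 library came from cells with an shRNA, so "without E2F1" means that no peak was called in the cells that still expressed it. Each condition had 1 library, so the knockdown could not be checked in these lists, no difference between conditions has a replicate check, and the intervals given are 95% intervals that cover counting error only. Absence from a peak list is not a value of 0.

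EZH2 is the catalytic subunit of polycomb repressive complex 2 and places the methyl groups that form H3K27me3. The mark typically covers CpG-rich promoters of developmental and tissue-restricted genes that a cell keeps silent, and it is usually low at the active promoters of genes that every cell needs. E2F1 is a transcription factor that binds the promoters of cell-cycle and DNA replication genes, where its motif centres on the bases CGC.

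To show what these promoters look like, the 200 bp around the midpoint are printed below for the 5 regions with the highest −log10 q and for the 2 strongest regions that hold an E2F motif. The bases are those of the hg38 reference, read 5′ to 3′ in the direction of the gene. Capitals mark matches on either strand to the E2F motif (TTCCCGC or TTCGCGC or TTGCCGC or TTGGCGC), the SP/KLF motif (GGGCGG), the ETS motif (CCGGAAG), 1 arm of the NRF1 palindrome (GCGCATG), the CCAAT box (CCAAT) and the cyclic AMP response element, or CRE (TGACGTCA). Matches of different motifs may overlap, and a match is a description of letters and not a binding site.
LSM10 (chr1:36397742-36397941, minus strand): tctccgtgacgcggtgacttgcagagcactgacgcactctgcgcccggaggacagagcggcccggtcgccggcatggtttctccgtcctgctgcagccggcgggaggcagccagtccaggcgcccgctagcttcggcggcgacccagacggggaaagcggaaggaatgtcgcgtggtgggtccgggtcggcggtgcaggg
PGK1 (chrX:78103976-78104175, plus strand): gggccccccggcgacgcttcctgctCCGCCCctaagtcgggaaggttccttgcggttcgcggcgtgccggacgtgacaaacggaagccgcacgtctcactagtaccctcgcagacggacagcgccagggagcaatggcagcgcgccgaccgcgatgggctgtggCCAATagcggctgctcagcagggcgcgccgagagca
AOPEP (chr9:94726659-94726858, plus strand): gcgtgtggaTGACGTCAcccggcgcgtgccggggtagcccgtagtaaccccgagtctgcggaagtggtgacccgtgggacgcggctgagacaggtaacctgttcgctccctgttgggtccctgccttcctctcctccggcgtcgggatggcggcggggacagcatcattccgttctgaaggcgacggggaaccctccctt
POP4 (chr19:29606149-29606348, plus strand): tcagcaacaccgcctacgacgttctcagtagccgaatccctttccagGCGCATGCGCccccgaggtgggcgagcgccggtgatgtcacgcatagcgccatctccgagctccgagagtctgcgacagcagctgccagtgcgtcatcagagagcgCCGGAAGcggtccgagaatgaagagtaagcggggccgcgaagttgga
EMC7 (chr15:34101746-34101945, minus strand): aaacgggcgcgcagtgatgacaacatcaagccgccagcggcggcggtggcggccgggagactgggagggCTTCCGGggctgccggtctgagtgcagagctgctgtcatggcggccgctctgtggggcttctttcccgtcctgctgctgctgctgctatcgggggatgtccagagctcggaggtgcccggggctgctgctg
MED27 (chr9:132079804-132080003, minus strand): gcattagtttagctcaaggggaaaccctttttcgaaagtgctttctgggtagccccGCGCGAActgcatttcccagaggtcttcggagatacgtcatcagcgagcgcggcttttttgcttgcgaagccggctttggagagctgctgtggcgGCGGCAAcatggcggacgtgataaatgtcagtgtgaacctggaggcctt
FAM149B1 (chr10:73168022-73168221, plus strand): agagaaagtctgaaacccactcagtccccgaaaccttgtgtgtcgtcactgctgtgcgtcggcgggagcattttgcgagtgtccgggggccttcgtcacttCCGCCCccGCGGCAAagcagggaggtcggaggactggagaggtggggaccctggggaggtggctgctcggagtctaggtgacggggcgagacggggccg

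The POP4 promoter held the full NRF1 palindrome, as 2 overlapping arms, and an ETS match that began at base 154 of the window, downstream of the TSS at base 135. The EMC7 promoter held an ETS match on the opposite strand. AOPEP carried a full CRE, and PGK1 a CCAAT box and an SP/KLF match on the opposite strand. In MED27 the 2 E2F matches began at bases 57 and 152 of the window, on either side of the TSS at base 137. None of the letters searched occurred in the 200 bp printed for LSM10, although the wider window used for the motif shares held an SP/KLF and an ETS match. CpG dinucleotides numbered 25 in the LSM10, 26 in the PGK1, 23 in the POP4 and 15 in the MED27 window.

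The strongest gained regions without E2F1 sat at gene start sites, most of them over 10 kb from any control peak. The region at LSM10, which encodes a subunit of the U7 particle that trims histone mRNAs, showed 9.72-fold enrichment in shE2F1 at a −log10 q of 40.8, where fold is the ratio of signal to background averaged over the region. In control shRNA no peak overlapped it, and the nearest, at a fold of 2.83, was 66099 bp away. E2F1 peaks were no nearer than 627333 bp in untreated, 90407 bp in DMSO and 12260 bp in GSK126 cells. PGK1 encodes the glycolytic enzyme phosphoglycerate kinase, and its region was enriched 8.06-fold in shE2F1 (−log10 q 39.8). The nearest control peak lay 38873 bp away, and the nearest E2F1 peaks lay 5922238, 35169 and 34976 bp away in untreated, DMSO and GSK126 cells. The highest fold of all the gained regions without E2F1, 11.48, was that at AOPEP, which encodes an aminopeptidase, with a −log10 q of 32.8 and no control peak within 127791 bp. Thus each of these 3 promoters had a strong peak in one H3K27me3 list and none closer than 38873 bp in the other.

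POP4, a subunit of the RNA-processing enzymes RNase P and RNase MRP, had a fold of 9.54 with the nearest control peak 7094 bp away. EMC7 and SSR2 encode subunits of complexes that handle new proteins at the endoplasmic reticulum. Their regions had folds of 9.22 and 8.15, and their nearest control peaks lay 122868 and 33575 bp away. MED27, a subunit of the Mediator complex, had a fold of 8.39 (−log10 q 24.9). At EXOSC7, which encodes a subunit of the RNA exosome, the fold was 9.41 and the nearest control peak, itself at a fold of 7.67, was 213882 bp away. APTX, which encodes the DNA repair protein aprataxin, had a fold of 8.48, and C1D, which encodes a cofactor of the exosome, had a fold of 7.12. TMEM39A, a transmembrane protein of the endoplasmic reticulum, had a fold of 10.61, and here a control peak of similar fold, 10.92, lay 5061 bp away. MAP3K13, which encodes a kinase of stress signalling, completed the first 12 by −log10 q with a fold of 7.34. All 12 midpoints lay within 173 bp of the TSS, and 11 of the 12 within 79 bp. Start sites of a neighbouring gene were also within 1 kb of the regions at EMC7 (PGBD4), EXOSC7 (ZDHHC3) and MAP3K13 (EHHADH), so these regions cannot be given to 1 gene.

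**Figure D1:**
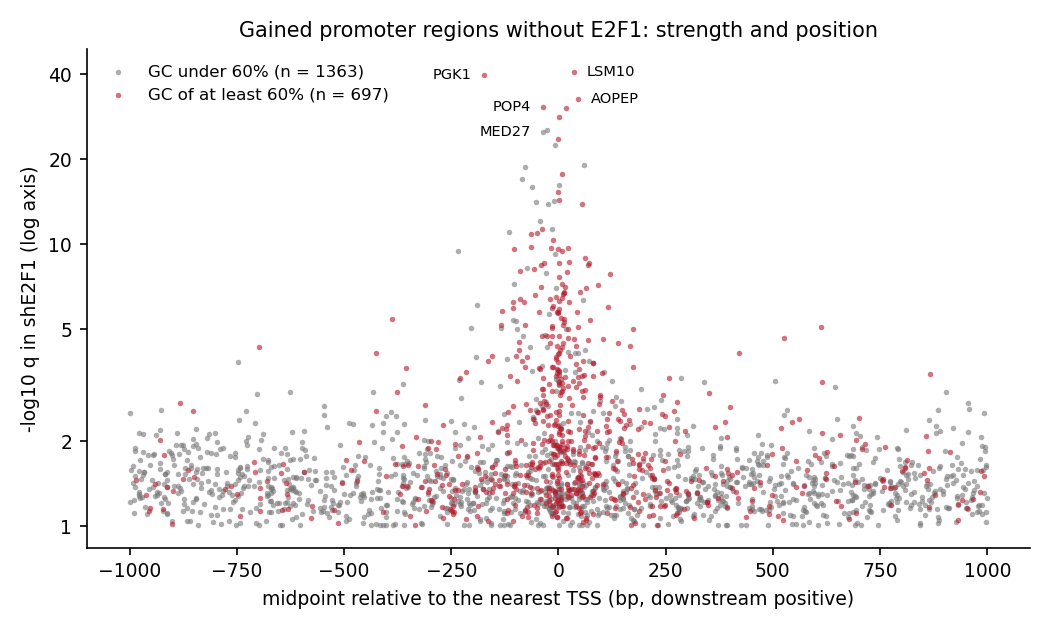
Each point is 1 of the 2060 gained promoter regions without E2F1, placed by the distance of its midpoint from the nearest TSS (bp, downstream positive) and by its −log10 q in shE2F1 on a log axis, with regions of at least 60% GC in red. Regions with a −log10 q of at least 5 gather at the TSS, with a median distance of 36.0 bp, while those under 2 are spread over the whole window.

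Most of the regions were weak. Their median −log10 q was 1.47, against a median of 1.53 over the whole shE2F1 list, and their median fold was 2.85 (2.83 to 2.86). A −log10 q of at least 2 was reached by 447 (21.7%) and of at least 5 by 103 (5.00%). These 103 strong regions differed in form from the 1613 under 2. Midpoints of 86 of the 103 (83.5%) lay within 100 bp of the TSS, whereas 329 (20.4%) of the weak regions did. Median GC, measured over the 150 bp on either side of the midpoint, was 64.8% in the strong and 52.5% in the weak regions, and median width was 373 and 520 bp. Strength also decides which peaks are called, so these values describe the regions and test nothing. Strong promoter peaks looked alike in the sets that the rule left out. The 117 peaks of the same strength that were in both H3K27me3 lists and had no E2F1 had a median GC of 66.8% and a median distance of 46.0 bp from the TSS, and the 461 that were gained with E2F1 had 70.1% and 49.0 bp.

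Distance to existing H3K27me3 followed the same division. The nearest control peak was a median of 25950 bp from the strong regions and 2931 bp from the weak ones, and 1178 of the weak regions (73.0%) had one within 10 kb, against 35 (34.0%) of the strong. The share was 66.4% over all 2060 regions and 19.2% in regions gained with E2F1. Of the regions lost from promoters without E2F1, 90.3% had an shE2F1 peak within 10 kb. The share at promoters with no peak was not measured. By sequence, the 1363 regions under 60% GC lay a median of 2484 bp from a control peak and 420 bp from the TSS, and the 697 regions of at least 60% GC lay 13978 and 102 bp away. Regions of at least 1 kb in width, 335 in number, had a control peak within 10 kb in 85.4% of cases, and none of them reached a −log10 q of 5.

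**Figure D2:**
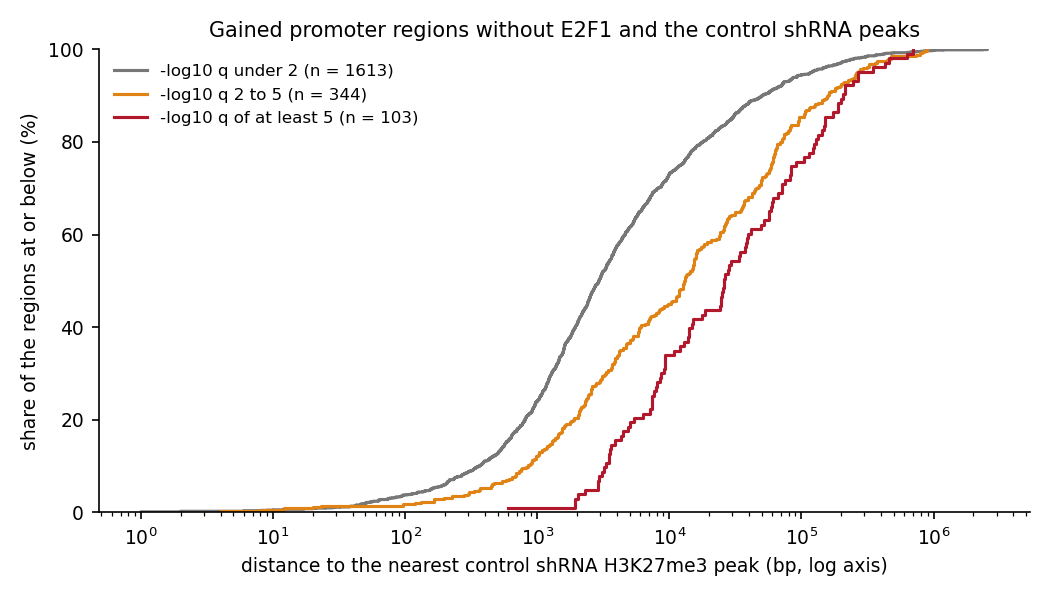
Cumulative share (%) of the gained promoter regions without E2F1 by the distance to the nearest control shRNA H3K27me3 peak (bp, log axis), for 3 classes of −log10 q. The curve of the strong regions lies to the right, with a median of 25950 bp against 2931 bp for the weak ones.

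The widest regions were of the weak kind. At WSCD2 the region spanned 3960 bp with a fold of 3.07 and lay 1950 bp from a control peak of fold 3.33. RYR1, which encodes the calcium release channel of skeletal muscle, carried 3926 bp at a fold of 3.14, and a control peak of fold 3.09 lay 1920 bp away. LCN9, of the lipocalin family, carried 3662 bp at a fold of 3.03, with a control peak 562 bp away. TM6SF2, which acts in lipid export by the liver, carried 3622 bp at 2.98, and MAP4K1, a kinase of blood cells, 3155 bp at 2.70. In each of these the −log10 q was under 2, and in 4 of the 5 a control peak of about the same fold lay within 2 kb. Regions can also crowd in 1 gene. KIF1A, a motor protein of axonal transport, held 6 gained regions without E2F1 at its annotated TSSs, with folds from 2.60 to 3.44 and control peaks 963 to 7209 bp away. In all, 207 genes had 2 or more such regions, and these are not independent of each other.

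Compared with promoter peaks that overlapped E2F1, fewer of those without E2F1 were gained. Of the 5215 shE2F1 promoter peaks without E2F1, 2060 had no control overlap (39.5%, 38.2 to 40.8), against 3550 of 4905 with E2F1 (72.4%, 71.1 to 73.6). The share over all shE2F1 peaks was 43.5%, and away from promoters and without E2F1 it was 42.3%, so gain at these promoters was about as frequent as in the rest of the list. In the opposite direction, 1058 of 4685 control promoter peaks without E2F1 had no shE2F1 overlap (22.6%), against 37 of 1263 with E2F1 (2.93%). These shares use the same contrast as the rule, so they are descriptions. The background per base, recovered from short broad peaks, was 1.27 fragments in the shE2F1 and 1.02 in the control library, and its part in the gained and lost shares was not tested.

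The difference between promoters with and without E2F1 varied with base composition. Below 40% GC the gained share was 36.6% without and 33.3% with E2F1, a difference of 3.26 points (−20 to 20.9), and from 40% to 50% the difference was −4.39 points (−14.3 to 4.83). From 50% GC upward it was between −19.6 and −23.2 points in each of the 4 classes, with no interval reaching 0. Without E2F1 the share itself moved from 34.8% at 40% to 50% GC to 54.4% at 70% to 80% GC. Peak strength gave another picture. Without E2F1 the gained share went from 64.6% in the class of lowest −log10 q to 22.6% at 2 to 3, then was 51.6% at 3 to 5, 60.7% at 5 to 10 and 29.6% (20.8 to 39.7) from 10 upward. The difference from promoters with E2F1 was −60.8 points (−64.1 to −57.3) at 2 to 3, but 7.05 (−2.58 to 16.1) at 5 to 10 and 11.3 (2.54 to 21.5) from 10 upward. From 5 upward, therefore, the gained share without E2F1 was not the lower value. The gained share also varied with width. A wide peak has more bases that can overlap, but width was not separated from strength or GC, and its part was not tested. Without E2F1 the gained share was 74.9% under 300 bp and 3.70% from 2 kb upward. Peaks of 2 kb or more numbered 1134 of 5215 without and 217 of 4905 with E2F1. The difference was between −18.4 and −21.6 points in the classes under 1 kb. It was −31.4 points at 1 to 2 kb and −1.37 (−5.26 to 1.19) from 2 kb upward.

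**Figure D3:**
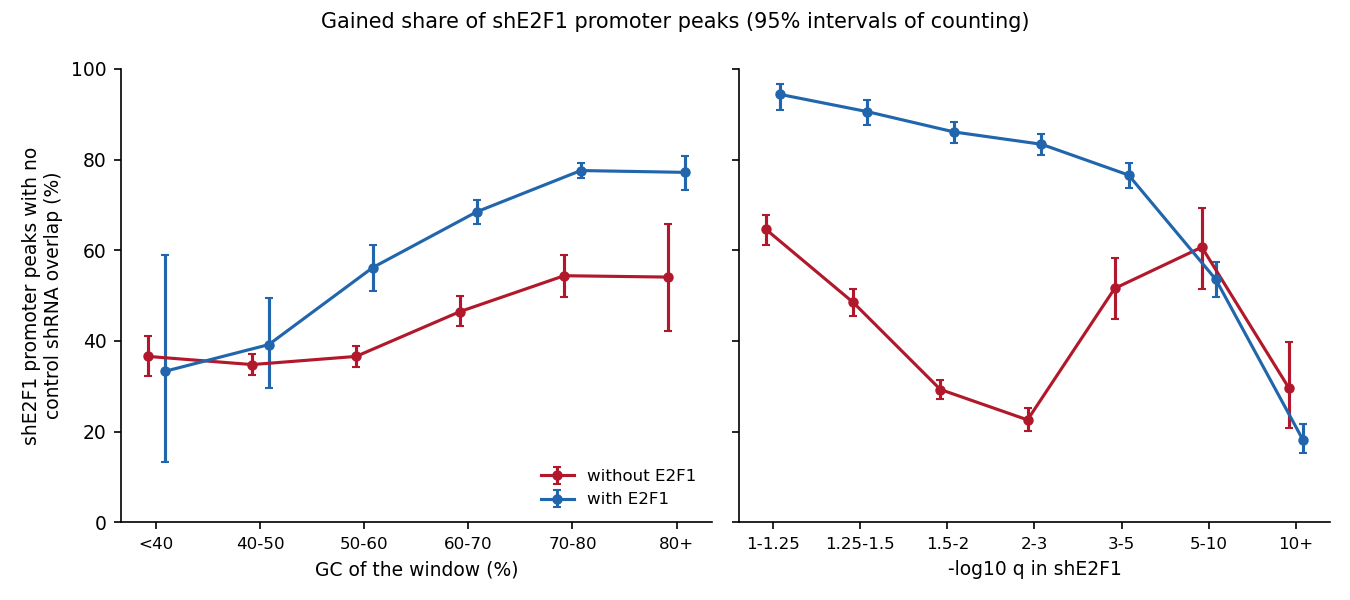
Share (%) of shE2F1 promoter peaks with no control shRNA overlap, without (red) and with (blue) an E2F1 peak, by GC of the window (left) and by −log10 q in shE2F1 (right), with exact 95% intervals of counting. On the left the groups part from 50% GC upward, and on the right they meet at a −log10 q of 5 to 10, at 60.7% and 53.6%.

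Base composition differed between the gained regions without E2F1 and those with it. The rule set no limit on GC, but it split these sets by E2F1 overlap, so the contrast may be partly built in. Median GC was 54.5% (53.8 to 55.1) without and 73.1% (72.8 to 73.4) with E2F1, and windows centred on the starts of all 19970 protein-coding genes had 62.8%. When gene starts alone served as TSSs, the median without E2F1 was 59.1%. Promoter peaks without E2F1 that were in both H3K27me3 lists had 51.5%, and those lost from the control list had 50.2%. The ratio of observed to expected CpG was 0.351 in the gained regions without E2F1, 0.915 in those with E2F1 and 0.279 in those in both lists. At least 60% GC was reached by 33.8% of the regions without E2F1 and 92.4% of those with it. Position differed too. The median distance to the TSS was 285 bp without and 75 bp with E2F1, and 51.3% (49.1 to 53.4) of the regions without E2F1 were centred downstream. The midpoint lay in an intron in 49.2%, in a non-coding part of an exon in 23.4%, in a coding exon in 10.4% and outside protein-coding genes in 16.9%. TSSs of genes on opposite strands were both within 1 kb of 83 regions without E2F1 (4.03%) and of 522 with E2F1 (14.7%).

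**Figure D4:**
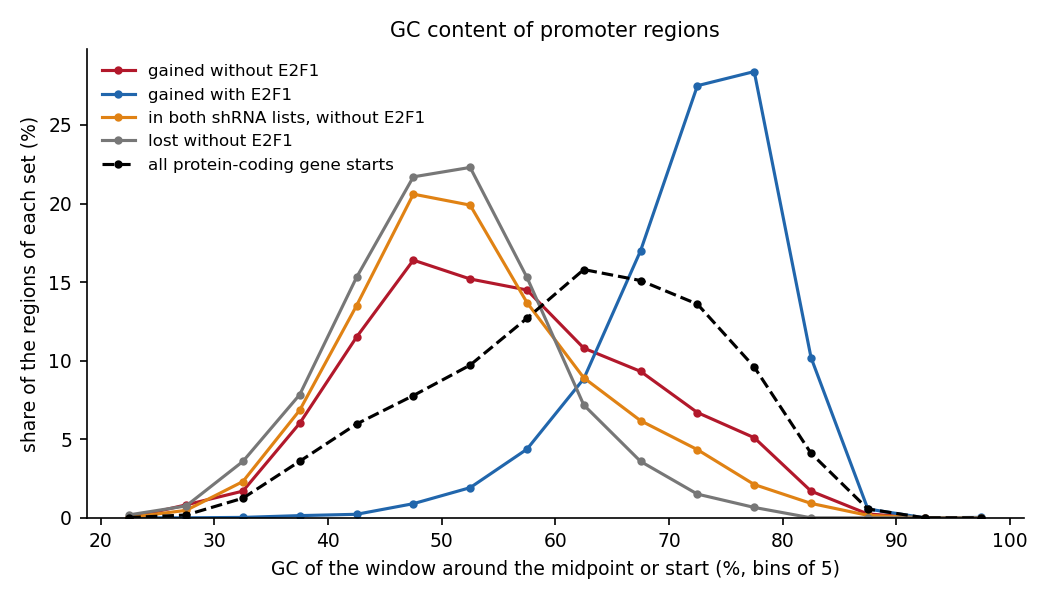
Share (%) of the regions of each set by GC of the window around the midpoint, or around the start for all protein-coding genes, in bins of 5% GC. The gained regions without E2F1 (red) peak below 55% GC, as do those in both lists and those lost, while those with E2F1 (blue) peak above 70%. At least 60% GC was reached by 33.8% of the gained regions without E2F1, 22.6% of those in both lists and 12.9% of those lost.

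The E2F motif was present in 132 of the 2060 windows without E2F1 (6.41%, 5.39 to 7.55) and in 25.8% of those gained with E2F1. Windows of the same length centred on all gene starts had it in 16.0%. The 2060 windows were centred on the peak, a median of 285 bp from any annotated TSS, so position was not matched to the gene starts. When gene starts alone served as TSSs, the share in regions without E2F1 was 9.25%. E2F1-free promoter peaks in both lists had the motif in 6.02%, and in 14.7% of those of at least 60% GC. The share was 10.5% when the GSK126 list was not used to choose the regions, and 1.31% for the motif with 1 more T. Among regions of at least 60% GC it was in 12.2% without and 26.3% with E2F1, a difference of −14.1 points (−16.8 to −11.1), so the difference was also present among GC-rich regions. As the rule split these sets by E2F1 peaks, this contrast too may be partly built in. The ETS motif, bound by a family of factors at many constitutive promoters, behaved otherwise. In the same GC class it was in 18.5% without and 16.9% with E2F1, a difference of 1.56 points (−1.45 to 4.86), whereas E2F1-free promoter peaks in both lists had 6.44%, 12.1 points (8.67 to 15.5) lower. The NRF1 arm was in 6.03%, 6.43% and 2.24% of these 3 sets. Among all gene starts of at least 60% GC, 15.7% had the ETS motif and 6.87% the NRF1 arm. The gained regions without E2F1 were thus near the share of ordinary GC-rich starts, and the peaks in both lists were below it. Over all GC classes, however, peaks in both lists were centred a median of 403 bp from the TSS, against 285 bp. Position was not matched between these sets, and its part in the motif shares was not tested. Motif shares also differed with strength. The ETS motif was in 30.1% (21.5 to 39.9) of the strong regions and 4.40% (3.45 to 5.52) of those under a −log10 q of 2, the NRF1 arm in 15.5% and 1.92%, and the CRE in 16.5% and 0.186%. For ETS the other strong peaks had a like share, with 23.9% of those gained with E2F1 and 23.9% (16.5 to 32.7) of the E2F1-free ones in both lists. The latter held the NRF1 arm in 5.98% (2.44 to 11.9) and the CRE in 4.27% (1.40 to 9.69). The CRE was in 2.18% of all gene starts and in 7.38% (5.16 to 10.2) of the equally strong regions gained with E2F1. The E2F motif was in 19.4% (12.3 to 28.4) of the strong regions, none of which overlapped an E2F1 peak. It was in 26.2% of the equally strong regions gained with E2F1 and in 11.1% (6.05 to 18.3) of the E2F1-free ones in both lists. All gene starts of at least 60% GC had it in 21.9%. The TATA box (TATAAA) was more frequent in the weak regions, with 11.7% of the weak and 0.971% of the strong.

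A gained region without E2F1 lay at 1 or more TSSs of 1916 of the 19970 protein-coding genes (9.59%, 9.19 to 10.0), the background for the gene lists that follow. Without the GSK126 list the regions numbered 3204 and lay at 16.1% of genes. Genes with no E2F1 summit at any of their TSSs had one in 15.7% of cases and genes with a summit in 3.98%. The rule leaves out regions that overlap an E2F1 peak, so this contrast is partly built in. Gained regions with E2F1, which the rule left out, lay at 4115 genes (20.6%). Since genes have many annotated TSSs, 416 of the 1916 (21.7%) had an E2F1 summit at another promoter and 685 (35.8%) had a control H3K27me3 peak at another. The median number of TSSs was 5 per gene over all genes. The gene lists were compiled from gene names and textbook roles.

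Genes that every cell uses were represented in 7 of 38 cases (18.4%, 7.74 to 34.3), an interval that includes the background. Of the 38, 33 had an E2F1 summit at a promoter, and the 5 that had none all carried a gained region (47.8 to 100%), against 15.7% of all genes with no summit. Genes of this list had a median of 11 TSSs, and so more places for a region to be counted than the 5 of all genes. These 5 were PGK1, EMC7, the small GTPase gene RAB7A (fold 4.80), the ESCRT gene CHMP2A (2.76) and C1orf43 (2.80). The other genes of the 7 were the glycolytic gene GPI, with a fold of 3.71, and YWHAZ, with 2.93. The C1orf43 region was centred 11 bp upstream of a TSS of UBAP2L, and the EMC7 region was within 1 kb of a TSS of PGBD4. Neither region can be given to 1 gene. The median −log10 q of the 7 regions was 4.74, against 1.47 over all 2060. Cytosolic ribosomal protein genes had 7 of 84 (8.33%), near the background, and 5 of the 10 such genes with no E2F1 summit (18.7 to 81.3%), at a median of 8 TSSs. The strongest by −log10 q, the order used in every list, was at RPL23, with a fold of 6.52 and a control peak 27892 bp away. Among the others, RPL34 had 4.19, RPL14 3.80, RPL31 3.30, RPS26 3.12 and RPL11 3.05. Mitochondrial ribosomal protein genes had 6 of 78 (7.69%), led by MRPS35 with a fold of 4.81. Genes of oxidative phosphorylation had 2 of 105 (1.90%, 0.232 to 6.71), but 71 of the 105 had an E2F1 summit at a promoter. Among the 34 with no summit the share was 5.88% (0.720 to 19.7), an interval that includes the 15.7% of all such genes. None of the 59 E2F target genes of the cell cycle had a region, but all 59 had an E2F1 summit at a promoter, so the rule left little room for one.

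Genes of the C2H2 zinc finger family, many of which repress transposons, had a region in 49 of 566 cases (8.66%), near the background. Of the 566, 378 had an E2F1 summit at a promoter. Among the 188 with none the share was 19.7% (14.3 to 26.1), against 15.7% of all such genes. Among the zinc finger regions were many strong ones, 25 of 49 having a −log10 q of 2 or higher and 9 of 49 one of 5 or higher, against 21.7% and 5.00% over all regions. ZNF419 had the highest −log10 q, 16.2, at a fold of 5.91, and a control peak lay 2018 bp away. ZNF286A had 6.51, ZNF155 5.27, ZNF224 5.15 and ZNF234 4.27. Several of these genes lie in clusters of similar sequence on chromosome 19, so the placement of reads among similar copies is uncertain.

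Ion channel genes held the largest share of the 21 lists, with 55 of 222 (24.8%, 19.2 to 31.0) against 9.59%, and 26.2% (20.0 to 33.2) against 15.7% among genes with no E2F1 summit. Their median number of TSSs was that of all genes. A control H3K27me3 peak was also at a promoter of 93 of the 222 (41.9%), against 23.2% of all genes, and 23 (10.4%) had a lost region, against 4.81% of all genes. Their 69 regions were weak, with a median −log10 q of 1.45 and none at 5 or more. CACNA1E, a calcium channel subunit, had a fold of 3.46 with a control peak 454 bp away. GRIN2D, a glutamate receptor subunit, had 3.15, the nicotinic receptor gene CHRNA3 3.76 and the potassium channel gene KCNJ2 3.50, with control peaks 1550, 1126 and 849 bp away. Solute carriers had 51 of 385 (13.2%, 10.0 to 17.0) and 21.5% (16.0 to 28.0) among genes with no E2F1 summit. Here too 39 genes (10.1%) had a lost region, against 4.81% of all genes. A control peak was at a promoter of 116 (30.1%), against 23.2%. The first gained region of the solute carriers was at the zinc transporter gene SLC39A13, at a −log10 q of 6.30 (fold 4.53), and SLCO1A2 had the higher fold, 4.79. Olfactory receptors had 31 of 416 (7.45%) and G protein-coupled receptors 18 of 230 (7.83%), but their genes had medians of 1 and 2 TSSs, and so fewer places for a region to be counted.

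**Figure D5:**
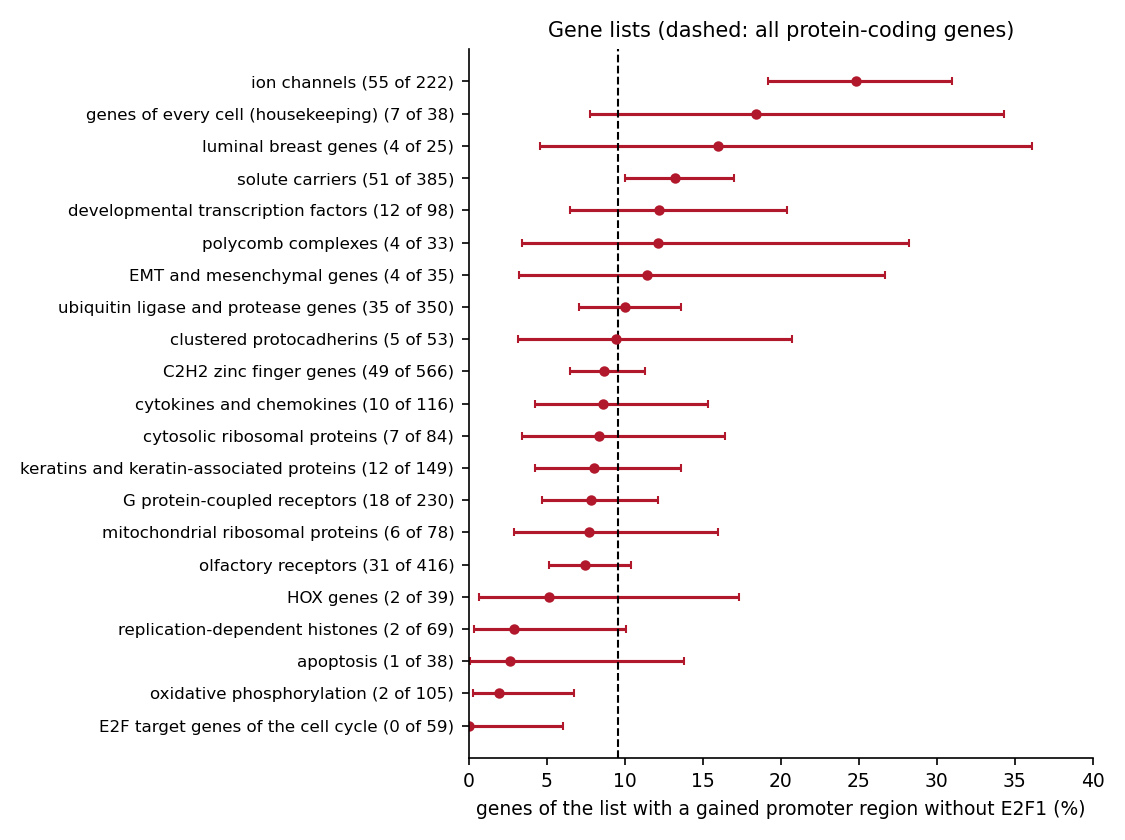
Share (%) of the genes of each list that have a gained promoter region without E2F1, with exact 95% intervals of counting, and the share of all protein-coding genes, 9.59%, as a dashed line. The interval of ion channels, 19.2 to 31.0, and that of solute carriers, 10.0 to 17.0, lie above the line, and those of oxidative phosphorylation and of the E2F targets, up to 6.71 and 6.06, lie below it. In oxidative phosphorylation 71 of 105 genes and in the E2F targets all 59 had an E2F1 summit at a promoter, which left less room for a region.

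Luminal breast genes, which triple-negative cells lack or express weakly, had a region in 4 of 25 cases (16.0%, 4.54 to 36.1), an interval that includes the background. Among them were ESR1 and PGR, which encode the estrogen and progesterone receptors, and the secreted trefoil factor gene TFF3. ESR1 had a fold of 2.75 in shE2F1 and a control peak 448 bp away, and PGR had 2.62 and 4571 bp. TFF3 had 2 regions, at folds of 2.80 and 2.90. The regions at these genes had a −log10 q under 1.5, and ESR1 and PGR each had a control H3K27me3 peak at another of their promoters. Of 98 developmental transcription factor genes, the usual targets of polycomb, 12 had a region (12.2%, 6.49 to 20.4). TBX1 had the highest −log10 q, 2.33, at a fold of 3.41. EN1, OTX2, PAX6 and SOX2 were among the others, and of the 39 HOX genes HOXC4 and HOXC6 had regions. At EN1, OTX2, PAX6 and SOX2 a control peak lay 727, 862, 573 and 751 bp from a region. Each of these genes had a control H3K27me3 peak at a promoter, whereas TBX1, HOXC4 and HOXC6 had none there. Polycomb genes themselves had 4 of 33 (12.1%), at PHC1 with a fold of 3.58, PCGF1 with 2.75, BCOR with 2.55 and CBX6 with 2.51. Of the 33, 28 had an E2F1 summit at a promoter, and 3 of the 5 with none had a region (14.7 to 94.7%). Genes of the epithelial to mesenchymal transition had 4 of 35 (11.4%). These were the tight junction gene TJP1 with a fold of 3.59, the receptor gene TGFBR2 with 2.60, the adhesion gene EPCAM with 2.60 and VIM, which encodes vimentin, with 2.47. The VIM region ended 53 bp from an E2F1 peak. Apoptosis genes had 1 of 38 (2.63%, 0.0666 to 13.8), at BCL2L2 with a fold of 2.81, but 33 of the 38 had an E2F1 summit at a promoter.

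Over all their genes, the remaining lists had shares near the background or below it. Ubiquitin ligase and protease genes had 35 of 350 (10.0%, 7.06 to 13.6). Among those with no E2F1 summit the share was 20.9% (14.3 to 29.0), against 15.7% of all such genes. The strongest region of the list was at the F-box gene FBXW9, with a fold of 6.0, a −log10 q of 10.3 and an E2F match in its window. Clustered protocadherins, adhesion proteins of neurons, had 5 of 53 (9.43%), with PCDHB5 at a fold of 3.0. Cytokines and chemokines had 10 of 116 (8.62%), with IL11 at 2.81. Keratins and keratin-associated proteins had 12 of 149 (8.05%), and the epidermal keratin gene KRT6B had the strongest region, at 3.86. Those with no E2F1 summit had a share of 8.11% (4.26 to 13.7), at a median of 1 TSS per gene. Replication-dependent histones had 2 of 69 (2.90%, 0.353 to 10.1), at H4C7 with 2.58 and H1-3 with 2.47. Of the 69, 33 had an E2F1 summit at a promoter, and the share among the 36 with none was 5.56% (0.680 to 18.7). In the lists given above, the strongest region of the olfactory receptors was at OR6P1 with a fold of 3.54, that of the HOX genes at HOXC4 with 2.78, and that of the G protein-coupled receptors at GPR89A with a −log10 q of 3.49 at a fold of 3.86. GPR89A has a near-identical copy, so its reads cannot be placed with certainty. The stronger of the 2 regions of oxidative phosphorylation genes, at a fold of 4.10, was centred 96 bp upstream of HYCC2 and was within 1 kb of a TSS of NDUFB3, so it cannot be given to 1 gene.

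Regions near the limits of the rule had ordinary values. Just inside 1 kb, the region at LRRC4B, centred 1000 bp upstream of the TSS, had a fold of 2.35 (−log10 q 1.22). Just outside, that at PROKR2, centred 1 bp farther out, had 2.54 and 1.19. A region at CACNA1A lay 1 bp from a control peak and was kept with a fold of 3.08, and one at NPHS1 overlapped a control peak by 1 bp and was left out at 2.67. A region at ARID1B lay 2 bp from an E2F1 peak with a fold of 2.65, and one at NCOR1 overlapped an E2F1 peak by 1 bp and was left out at 3.09. In all, 430 regions had a control peak within 1 kb and 111 an E2F1 peak within 1 kb. Of these 111, 109 were near a peak of the GSK126 list, 37 near one of the DMSO list and 1 near one of the untreated list. The untreated list held 1056 peaks, the DMSO list 15703 and the GSK126 list 14276, so the untreated list was the smallest by far.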

How the data were processed

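Peak lists of 5 ChIP-seq libraries were analysed. Per the labels all chromatin was sonicated, whereas the study's methods give micrococcal nuclease for histone marks, and the control library of each call is not given in the sources used here. The submitters' processing notes name cutadapt 4.5, Bowtie2 2.5.2, Picard, SAMtools and MACS2 2.2.9.1 with GRCh38. The authors called peaks per library, with a q cut-off of 0.01 in narrow mode for E2F1 and a broad cut-off of 0.1 for H3K27me3. The deposited lists hold fold enrichment as a ratio to background, and −log10 of the p-value and of the q-value. The deposited score column was not used. The input sample is not analysed here.

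Overlaps, distances to the 145932 TSSs of all transcripts of 19970 protein-coding genes in GENCODE release 44, GC content, motif matches and gene lists were computed with Python 3.11.15, pandas 2.3.3, pysam 0.24.0 and scipy 1.17.1. GC and motifs were read over 150 bp on either side of the midpoint. Shares carry exact Clopper-Pearson intervals, medians order-statistic intervals and differences of shares Newcombe intervals. Depth was read from peaks under 300 bp whose fold and p-value gave a whole number of fragments within a relative error of 2e-05, and 808 of 1510 solved control peaks and 799 of 1246 solved shE2F1 peaks were at the stated background. The functions were tested on simulated data. With 1 library per condition there is no test between conditions. Named genes are the 12 regions with the highest −log10 q, the 5 widest, the strongest of each gene list and those at the limits. Other list members, KIF1A and FAM149B1 were added after their values were seen. Results on a few genes are not reported here. The members and gene lists were chosen with earlier results of these data known.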

Additional observations from a re-analysis of the deposited data

How the results depend on the processing

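The number and gained share of the regions, the difference from peaks with E2F1, fold, GC, E2F motif, position and share of genes were recomputed under 9 other settings, one of them, the use of TSSs of protein-coding transcripts alone, chosen after seeing the data. The other shares, distances and gene lists were not. The lower gained share without E2F1 kept its direction under 8 of them and reversed when shE2F1 peaks needed a −log10 q of 5. Peak strength moved most values. With 2 or more in shE2F1 there were 447 regions, 30.7% of promoter peaks without E2F1, with a median fold of 3.59, GC of 63.5%, the E2F motif in 10.3% and 2.51% of genes. At 5 or more there were 103 regions (46.8%), the difference from peaks with E2F1 was 9.52 points (2.49 to 16.6), and the other values were 4.86, 64.8%, 19.4% and 0.606%, with 41.7% centred downstream. At least 2 in both lists gave 861 regions (59.1%), −14.3 points, 3.45, 59.1%, 9.64% and 4.5%. Leaving out regions with a control peak within 1000 bp gave 31.3%, −40.1 points, a fold of 2.87, GC of 55.5% and 7.99% of genes. Without E2F1 peaks within 1000 bp, 9.0% of genes had a region. Without the GSK126 list the regions numbered 3204 (46.4%), with −28.3 points, 2.92, 61.8%, the motif in 10.5% and 16.1% of genes. Within 500 bp of a TSS there were 1367 (42.2%), at 2.86, 57.8% and 6.84% of genes. Gene starts alone gave 995 (42.2%), −30.1 points, 2.91, 59.1%, the motif in 9.25%, 58.8% downstream and 5.41% of genes. Protein-coding transcripts alone gave a fold of 2.86, GC of 57.1%, the motif in 7.81% and 7.63% of genes. The motif with 1 more T was in 1.31% of windows, and 10.9% of whole regions held the shorter one. The causes were not tested. No paired analysis was possible because each condition has 1 library, and the lists give no depth for single regions.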
